A study of Homo sapiens with 12 samples.

Results

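The genes described here are 10 named genes of the human transcriptome: ITGA4, which encodes the integrin subunit alpha 4 (CD49d), CERKL, the gene next to it, and 8 further integrin subunits, ITGB1, ITGB7, ITGA5, ITGA6, ITGAL, ITGB2, ITGAE and ITGAV. They were taken by symbol from a count table of 63677 genes, and 9 of the 10 passed the filter on low counts, which left 16287 genes to test. ITGA4 and CERKL were chosen by their measured response, since both had been seen to be higher with doxycycline in all 3 lines, so their doxycycline values are given as a description, without a test. The 8 further integrin subunits were listed for their family, though the list was drawn up with earlier results of these data known.

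RNA was sequenced from HPB-ALL cells, a line of human T-cell acute lymphoblastic leukaemia (T-ALL), after infection with lentiviruses for inducible overexpression and drug selection. The T5 line was made for TAL1, the L4 line for LMO1 and the C25 line for TAL1 and LMO1 together. Each line was given DMSO, the vehicle, or doxycycline, the inducer, with n = 2 libraries in each of the 6 groups. All 12 libraries thus come from infected and selected cells, no line without a transgene was among them, and neither the dose nor the time of doxycycline is given in the sources used. Nothing in the sources says whether the 2 libraries of a group came from separate cultures, so the p-values cover only library-to-library spread, which may be technical.

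Integrins are adhesion receptors made of an alpha and a beta subunit, and only the pair reaches the cell surface in quantity. Alpha 4 pairs with beta 1 to form VLA-4, which binds VCAM-1 and fibronectin and holds lymphoid cells to marrow stroma, or with beta 7 to form a receptor for MAdCAM-1 that guides lymphocytes to the gut. TAL1 is a basic helix-loop-helix factor that binds E-box motifs with its partners, LMO proteins bridge it to further DNA-binding proteins, and both genes are oncogenes of T-ALL.

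Library totals lay between 14865073 and 15917713 counts. TAL1 stood at 35.5 and 42.9 CPM (counts scaled to library size by TMM) in the T5 libraries with doxycycline and at 932 and 868 in those of C25, and LMO1 at 239 and 212 in L4 and 1501 and 1576 in C25. The C25 line therefore differs from the single lines in the level of each transgene as well as in having both. These cannot be told apart. With DMSO, C25 already differed from T5 in 45.4% and from L4 in 41% of all tested genes, so the line itself is a further difference. Without a line that lacks a transgene, effects of doxycycline itself and of the transgenes cannot be told apart either. Traces of the transgenes were present with DMSO in the single lines too. TAL1 was at 4.06 and 3.88 CPM in T5 with DMSO, against 0.262 and 0 in L4 with DMSO. LMO1 was at 3.93 and 1.76 CPM in L4 with DMSO, against 0.0655 and 0.324 in T5 with DMSO. The C25 libraries with DMSO held unequal traces of the transgenes, 3.08 and 7.34 CPM for TAL1 and 0.449 and 6.89 for LMO1. Without the first or the second of these libraries, the C25 difference of ITGA4 was 2.70 or 2.71 on the log2 scale and that of ITGB1 1.56 either way. Of 14 T-lineage markers, TRBC1 was at 0 in all 12 libraries and 13 were tested. In C25, 4 of the 13 were higher with doxycycline (CD28, CD8A, CD5 and CD7) and 9 were lower, beside 28.5% and 31.7% of all tested genes. TRBC2, lower at 1235 and 1235 CPM against 2605 and 2761, and CD1E, lower at 446 and 449 against 1346 and 1344, weigh most in the summed level of the list, which was 4630 to 4795 CPM against 6992 to 7091 with DMSO, while CD28 was higher at 743 and 775 against 297 and 292. The summed level of 5 B-cell markers was 9.40 to 10.3 CPM in C25 with doxycycline against 5.32 to 5.41 with DMSO. Most of it was CD79B, at 10.0 and 8.97 against 4.17 and 4.89 CPM and the only 1 of the 2 tested B-cell markers called, and MS4A1 was at 0 in these 4 libraries. The part of these marker differences in the C25 results below was not tested. Of 5 myeloid markers none was above 1 CPM in any group, though their sum was 1.1 to 1.4 CPM in C25 with doxycycline against 0.51 to 0.77 with DMSO, and 4 of 5 erythroid and platelet markers were at 0 in all libraries. The sum of 7 stromal, epithelial and endothelial markers was 6.8 to 7.0 against 5.8 to 7.0 CPM. In bulk RNA, fewer cells with a transcript and less of it per cell cannot be told apart.

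ITGA4 and CERKL lie side by side on chromosome 2 and are transcribed towards each other from separate promoters. Their 250 bases before the RefSeq start (build GRCh38.p14) are printed with that of ITGB1, because these 3 had the largest log2 differences in C25 among the 9 of the 10 genes that passed the filter. Capitals mark a match on either strand to the E-box CANNTG or to TGTGGT, the motif of the RUNX family. ITGA4 lies on the plus strand, at chr2:181457136-181457385, CERKL on the minus strand, at chr2:181657106-181657355, and ITGB1 on the minus strand, at chr10:32958231-32958480.
ITGA4: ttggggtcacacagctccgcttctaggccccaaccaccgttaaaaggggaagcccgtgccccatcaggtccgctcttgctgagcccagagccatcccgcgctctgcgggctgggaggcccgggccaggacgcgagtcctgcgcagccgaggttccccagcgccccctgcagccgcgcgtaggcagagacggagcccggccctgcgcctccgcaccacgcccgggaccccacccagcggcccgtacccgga
CERKL: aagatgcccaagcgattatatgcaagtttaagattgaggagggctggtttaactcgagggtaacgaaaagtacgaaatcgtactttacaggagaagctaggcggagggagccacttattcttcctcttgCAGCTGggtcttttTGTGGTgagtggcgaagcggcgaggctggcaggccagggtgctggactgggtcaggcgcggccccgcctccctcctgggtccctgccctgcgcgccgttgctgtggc
ITGB1: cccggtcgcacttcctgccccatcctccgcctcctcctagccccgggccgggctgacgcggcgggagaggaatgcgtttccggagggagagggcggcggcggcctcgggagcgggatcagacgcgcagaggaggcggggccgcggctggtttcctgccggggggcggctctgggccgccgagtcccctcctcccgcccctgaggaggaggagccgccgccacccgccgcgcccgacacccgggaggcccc

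The ITGA4 and ITGB1 windows hold no match to either motif, while the CERKL window holds 1 CAGCTG and 1 TGTGGT. RefSeq windows were at hand for 8 of the 10 genes. ITGAV also had no E-box, ITGB7 and ITGA5 had 1 each, ITGAE had 2 and ITGA6 had 7. CANNTG is found in 61.8% of 35116 windows of the same length, CAGCTG in 14% and TGTGGT in 11%. AGATAA, the GATA motif, was in none of the 8 windows and is found in 9.17% of all. Neither a match nor its absence in these windows says anything of binding, which was not measured.

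ITGA4 (ENSG00000115232) stood at a like level in all lines before induction and at a much higher level in C25 with doxycycline. In T5 it was at 485 and 489 CPM with DMSO and at 592 and 590.2 with doxycycline. In L4 the values were 440.0 and 431 with DMSO and 545 and 556 with doxycycline. In C25 they were 489.7 and 494 with DMSO and 3348 and 3139.5 with doxycycline. Within each line both doxycycline libraries lay above both DMSO libraries, and the C25 doxycycline libraries lay far above the other 10. ITGA4 was chosen for being higher with doxycycline in every line, so the order within lines follows in part from that choice. The fitted log2 difference was 0.28 (SE 0.04) in T5, 0.34 (SE 0.04) in L4 and 2.72 (SE 0.04) in C25, the last a 6.59-fold difference. ITGA4 counts were 0.0415% to 0.0588% of all counts in the other 10 libraries and 0.363% and 0.338% in C25 with doxycycline.

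Per kilobase of exon, ITGA4 ranked 539th of 15736 genes in C25 with DMSO and 25th with doxycycline, at 411 ± 19 CPM per kb (SD, n = 2). In the other 4 groups it ranked between 432nd and 681st. The order of its levels was L4 with DMSO, T5 with DMSO, C25 with DMSO, L4 with doxycycline, T5 with doxycycline and C25 with doxycycline. The T5 and C25 DMSO groups, neighbours in that order, did not differ beyond their spread. Before induction, the difference of C25 from T5 was 0.01 on the log2 scale (SE 0.04, adjusted p = 0.832, edgeR quasi-likelihood test), that of C25 from L4 was 0.18 (SE 0.04, adjusted p = 5.98e-04) and that of T5 from L4 was 0.16 (SE 0.04, adjusted p = 0.00177). The last 2 passed the threshold of 0.05, so L4 had slightly less ITGA4 than the other lines. The DMSO libraries also entered the responses that chose ITGA4 and CERKL, so baseline p-values of both genes are not free of that choice.

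**Figure D1:**
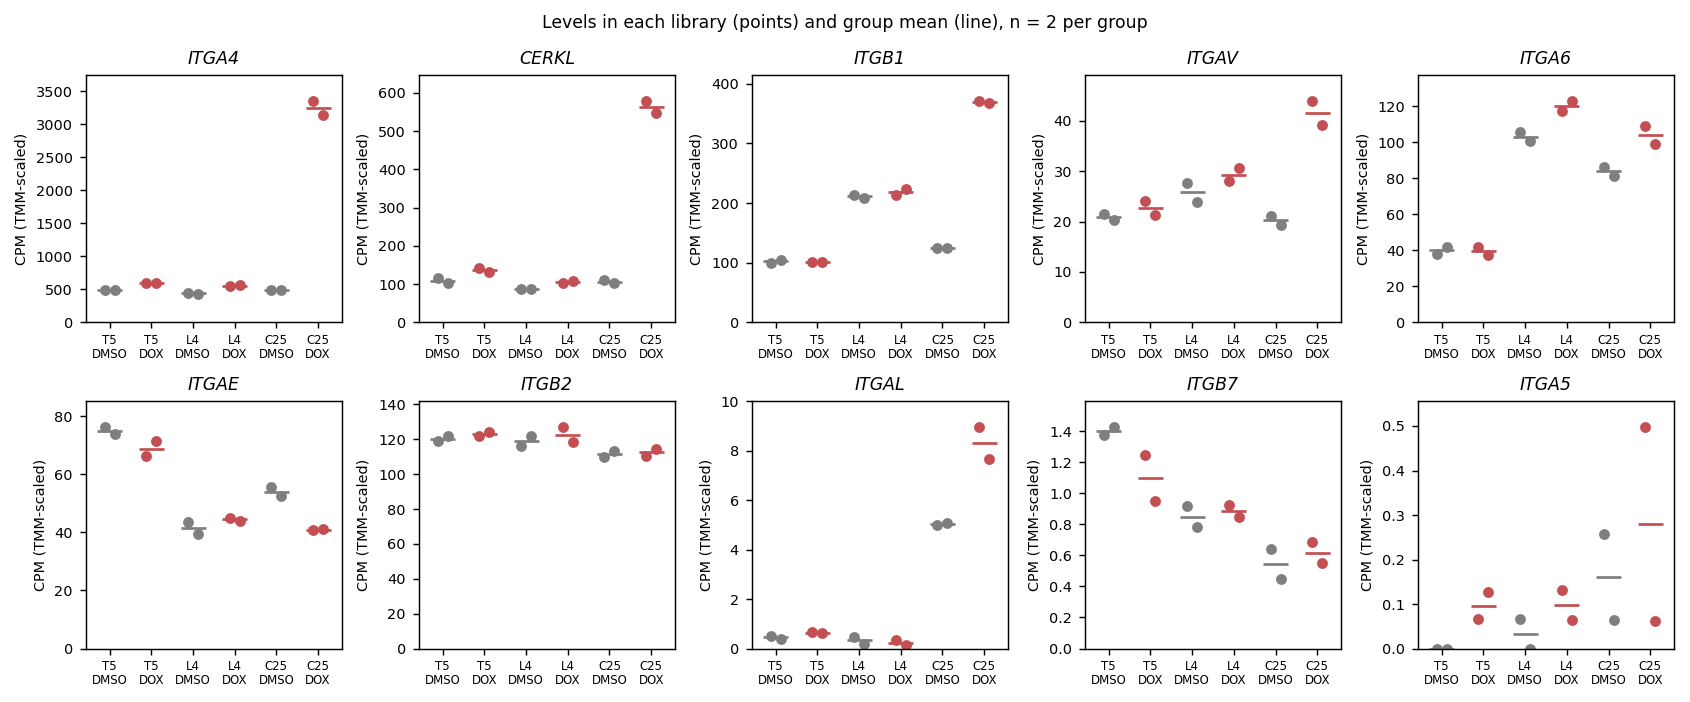
CPM (TMM-scaled) of the 10 genes in every library. Each panel is 1 gene with its own linear axis from 0, points are libraries, short lines are the means of n = 2, grey is DMSO and red is doxycycline. ITGA4, CERKL, ITGB1 and ITGAV stand highest in C25 with doxycycline, whereas ITGB2 lies between 110 and 127 in all 12 libraries.

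CERKL (ENSG00000188452) encodes a protein named for its likeness to ceramide kinase and known from inherited retinal disease. It stood at 115 and 103 CPM in T5 with DMSO and at 142 and 132 with doxycycline. L4 had 85.9 and 87.9 with DMSO and 102 and 108 with doxycycline, and C25 had 109 and 103 with DMSO and 579 and 548 with doxycycline. As for ITGA4, the treatments did not overlap in any line and C25 with doxycycline stood apart. Both genes were chosen for being higher with doxycycline in every line, so this separation follows in part from that choice. The share of all genes without overlap was not counted. The log2 differences were 0.34 (SE 0.06) in T5, 0.27 (SE 0.06) in L4 and 2.41 (SE 0.05, 5.31-fold) in C25. The order of its levels was L4 with DMSO, L4 with doxycycline, C25 with DMSO, T5 with DMSO, T5 with doxycycline and C25 with doxycycline, and L4 with doxycycline and the C25 and T5 DMSO groups lay within each other's spread. With DMSO, CERKL was lower in L4 than in T5 (T5 against L4: 0.32, SE 0.06, adjusted p = 3.20e-06) and than in C25 (0.29, SE 0.06, adjusted p = 2.64e-05), and the difference of C25 from T5 was -0.04 (SE 0.06, adjusted p = 0.638).

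The count of CERKL divided by that of ITGA4 stayed between 0.173 and 0.240 in all 12 libraries, while ITGA4 itself spanned 431 to 3348 CPM. Both genes were chosen for a rise in every line, so the narrow range of the ratio follows in part from that choice. The ratio was lowest in C25 with doxycycline, at 0.173 and 0.175, and lay at 0.224 and 0.208 in that line with DMSO. Per kilobase, the level of CERKL was 0.287 to 0.398 of that of ITGA4 over the 12 libraries. In GENCODE 29 the exons of the pair do not overlap the opposite strand, whereas in the RefSeq annotation the spans of ITGA4 and CERKL overlap. The libraries were made to keep strand, per the labels, but whether counting used it is not stated in the sources at hand. As a check, 3 of 26 protein-coding genes (11.5%) with at least 90% of their exons under those of the opposite strand had a mean count over 100, against 9697 of 19350 other protein-coding genes (50.1%). Without knowing the strand setting, reads of the one gene cannot be told apart from reads of the other where they overlap.

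**Figure D2:**
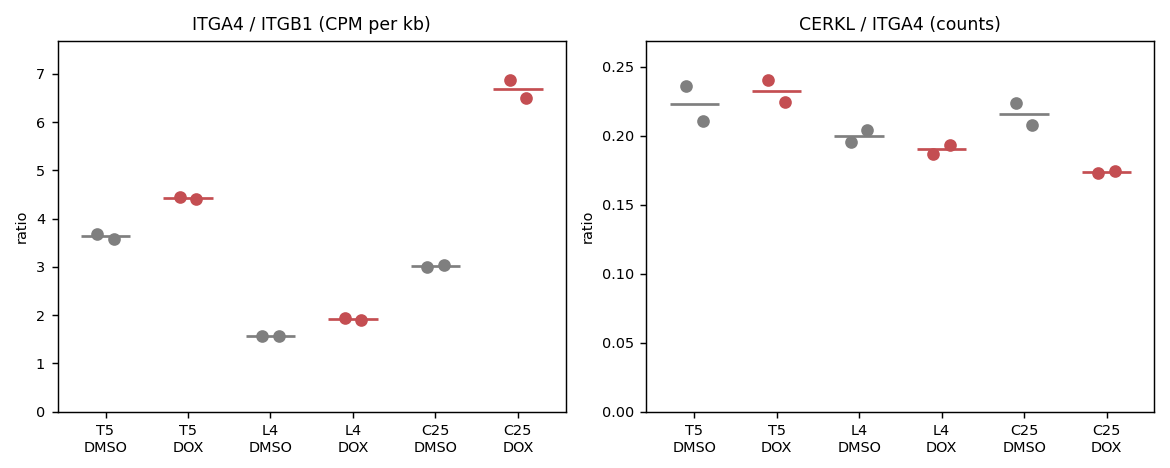
Left, the level of ITGA4 per kilobase divided by that of ITGB1; right, the count of CERKL divided by that of ITGA4. Points are libraries and lines the means of n = 2, on linear axes from 0. The left ratio stands at 6.86 and 6.49 in C25 with doxycycline, and the right one stays between 0.173 and 0.240.

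Of the tested genes listed along the chromosome from CWC22 to NUP35, ITGA4 and CERKL were the only 2 with a log2 difference above 1 in C25. Both were chosen for their response to doxycycline, so their place apart from the neighbours follows in part from that choice. The list of neighbours held 12 symbols, of which 9 were tested: 1 rose, 4 fell and 4 did not pass the test in C25, and none passed in T5 or L4. Over all tested genes 60.2% were called in C25 (28.5% higher, 31.7% lower), 1.84% in T5 and 2.14% in L4, so the neighbours' share of calls was near that of all genes. UBE2E3, the next gene on the ITGA4 side, which encodes a ubiquitin-conjugating enzyme, fell from 80.5 and 82.1 to 42.9 and 47.7 CPM in C25 (log2 -0.84, SE 0.06, adjusted p = 6.98e-20). CWC22, a splicing factor gene beyond it, fell from 63.4 and 62.6 to 52.5 and 50.1 CPM (log2 -0.30, SE 0.06, adjusted p = 5.62e-05). On the CERKL side, NEUROD1 had 1 library above 0, at 0.0647 CPM, and was not tested. SSFA2, which follows it, stood at 110.1 and 113 CPM with DMSO and at 118 and 115 with doxycycline in C25 (log2 0.07, SE 0.05, adjusted p = 0.295).

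Farther out, NUP35, a nuclear pore gene, fell from 26.4 and 24.3 to 14.3 and 14.3 CPM (log2 -0.82, SE 0.10) and DNAJC10, a chaperone gene, fell from 116 and 116 to 98.4 and 93.2 CPM (log2 -0.28, SE 0.06). NCKAP1, a subunit of the WAVE actin regulator, rose from 14.2 and 12.6 to 18.1 and 19.0 CPM (log2 0.46, SE 0.10, adjusted p = 8.60e-05). PPP1R1C, DUSP19 and FRZB did not pass the test, with differences of -0.13 (SE 0.27), -0.07 (SE 0.19) and -3.70 (SE 2.20); FRZB was at 0 in both C25 doxycycline libraries and had 1 DMSO library above 0, at 0.193 CPM, which is at the limit of 3 counts. PDE1A was at or under 0.132 CPM in all libraries and was not tested. The median log2 difference of the 9 tested neighbours in C25 was -0.28, beside -0.01 for all 16287 genes.

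The partners of alpha 4 behaved unlike each other. ITGB1 (ENSG00000150093), the beta 1 subunit shared by most integrins of leukocytes and stroma, was at 100.1 and 104 CPM in T5 with DMSO and at 101 and 102 with doxycycline. In L4 it was at 213 and 209 with DMSO and at 213 and 224 with doxycycline, and in C25 at 124 and 124 with DMSO and at 371 and 368 with doxycycline. The treatments overlapped in T5 and L4 and lay far apart in C25. ITGB1 rose 2.98-fold in C25 (log2 1.57, SE 0.05, adjusted p = 4.83e-42), and its difference was -0.01 (SE 0.05, adjusted p = 0.986) in T5 and 0.05 (SE 0.05, adjusted p = 0.769) in L4. The C25 response exceeded that of T5 by 1.58 (SE 0.07, adjusted p = 6.14e-31) and that of L4 by 1.53 (SE 0.07, adjusted p = 1.71e-31).

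Before induction ITGB1 differed between all 3 lines. It was highest in L4, lower in C25 (C25 against L4: -0.77, SE 0.05, adjusted p = 1.27e-22) and lowest in T5 (T5 against L4: -1.05, SE 0.05, adjusted p = 9.95e-30; C25 against T5: 0.28, SE 0.05, adjusted p = 5.95e-06). Levels of ITGA4 per kilobase were 3.69 and 3.58 times those of ITGB1 in T5 with DMSO and 4.45 and 4.41 times with doxycycline. The ratios were 1.57 and 1.57 in L4 with DMSO, 1.95 and 1.89 with doxycycline, 2.997 and 3.03 in C25 with DMSO and 6.86 and 6.49 with doxycycline. Transcripts of alpha 4 thus outnumbered those of beta 1 per kilobase in every library, and most in C25 with doxycycline. The ratio is of RNA and not of subunits at the surface.

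ITGB7 (ENSG00000139626), the other partner, was near the lower limit of detection throughout. It was at 1.38 and 1.42 CPM in T5 with DMSO and 1.24 and 0.951 with doxycycline, at 0.917 and 0.782 and then 0.923 and 0.845 in L4, and at 0.641 and 0.451 and then 0.683 and 0.553 in C25. The treatments overlapped in L4 and C25, and in T5 both doxycycline libraries lay below both DMSO libraries. No response passed the test: the differences were -0.35 (SE 0.36, adjusted p = 0.783) in T5, 0.06 (SE 0.42, adjusted p = 0.983) in L4 and 0.18 (SE 0.49, adjusted p = 0.778) in C25, on 7 to 22 counts a library, a depth at which changes of this size were not detectable. With DMSO, ITGB7 was lower in C25 than in T5 (log2 -1.35, SE 0.42, adjusted p = 0.00566), a call that is lost without replicate 2 of C25 with DMSO (adjusted p = 0.0802) and with DESeq2 (adjusted p = 0.0535). Per kilobase in C25 with doxycycline, ITGB7 reached 0.138 ± 0.021 CPM per kb, ITGB1 61.5 ± 0.4 and ITGA4 411 ± 19 (SD, n = 2).

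Of the 8 integrin subunits other than ITGA4, 7 were tested. In C25, 4 of the 7 rose (ITGB1, ITGA6, ITGAL and ITGAV), ITGAE fell and ITGB7 and ITGB2 did not pass the test. This stands beside 60.2% of all tested genes called in C25 (28.5% higher, 31.7% lower), so a call by itself was common in that line. The median log2 difference of the 7 was 0.31, beside -0.01 for all genes. In T5 none of the 7 passed the test, beside 1.84% of all genes (0.982% higher, 0.853% lower). In L4 only ITGA6 did, beside 2.14% (1.18% higher, 0.964% lower). Their medians there were -0.01 in T5 and 0.06 in L4.

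**Figure D3:**
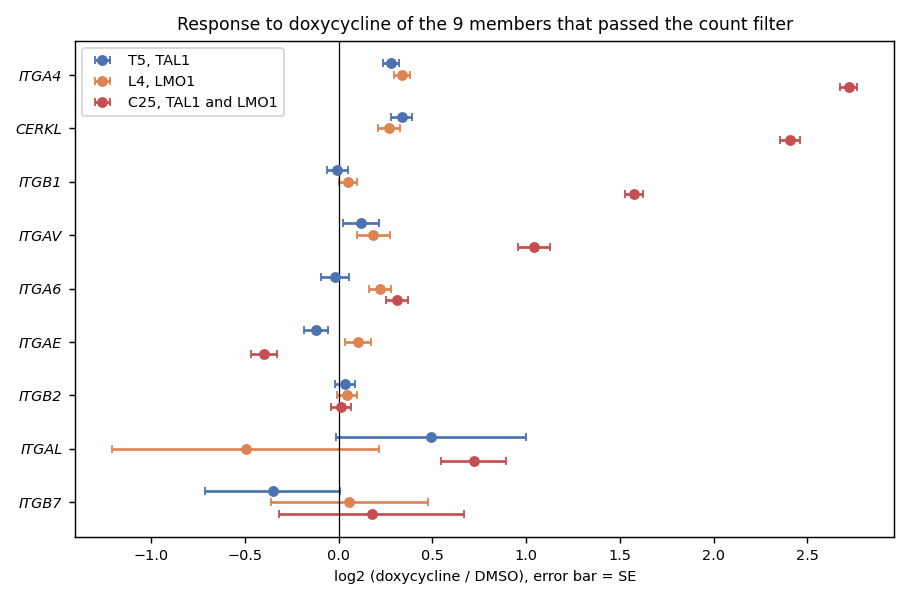
Log2 difference between doxycycline and DMSO (x axis, bars are SE) of the 9 tested genes in T5 (blue), L4 (orange) and C25 (red). ITGA4, CERKL, ITGB1 and ITGAV lie above 1 in C25, and ITGAE lies at -0.40.

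Among the alpha subunits that pair with beta 1, ITGAV and ITGA6 rose in C25 and ITGA5 was barely present. ITGAV (ENSG00000138448), the alpha V subunit of the vitronectin receptors, was at 21.4 and 20.3 CPM in T5 with DMSO and at 24.1 and 21.2 with doxycycline. L4 had 27.7 and 23.9 and then 28.0 and 30.5, and C25 had 21.1 and 19.3 and then 43.9 and 39.2. The C25 doxycycline libraries were the 2 highest of the 12. ITGAV rose 2.06-fold in C25 (log2 1.04, SE 0.09, adjusted p = 7.64e-18), and the differences of 0.12 in T5 (SE 0.10, adjusted p = 0.681) and 0.18 in L4 (SE 0.09, adjusted p = 0.382) did not pass. The C25 response exceeded those of T5 and L4 by 0.92 (SE 0.13, adjusted p = 6.37e-09) and 0.86 (SE 0.12, adjusted p = 1.47e-08). With DMSO, ITGAV was lower in C25 than in L4 (-0.35, SE 0.09, adjusted p = 0.00146) and in T5 than in L4 (-0.31, SE 0.09, adjusted p = 0.00633), and without replicate 1 of L4 with DMSO neither call holds (adjusted p = 0.0925 and 0.206). The call for T5 is also lost without replicate 2 of T5 with DMSO (adjusted p = 0.0829).

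ITGA6 (ENSG00000091409), the alpha 6 subunit of laminin receptors, differed more between the lines than between treatments. It was at 38.2 and 41.9 CPM in T5 with DMSO and at 41.7 and 37.3 with doxycycline. In L4 it was at 105 and 101 and then at 117 and 123, and in C25 at 86.1 and 81.6 and then at 109 and 98.9. All T5 libraries lay below all others, and the treatments overlapped only in T5. ITGA6 rose in C25 by 0.31 on the log2 scale (SE 0.06, adjusted p = 5.22e-06), and in L4 by 0.22 (SE 0.06, adjusted p = 0.0212). The L4 call is lost without DMSO replicate 2 (adjusted p = 0.232), without doxycycline replicate 1 (0.0704) or 2 (0.329) and with DESeq2 (0.0897), and the adjusted p in the authors' deposited table for L4 is 0.0951. In T5 the difference was -0.02 (SE 0.07, adjusted p = 0.966).

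The ITGA6 response of C25 exceeded that of T5 by 0.33 (SE 0.09, adjusted p = 0.00284). This call is lost without T5 DMSO replicate 2 (0.25, adjusted p = 0.0688) or T5 doxycycline replicate 2 (0.24, adjusted p = 0.0647). Its excess over the L4 response was 0.09 (SE 0.08, adjusted p = 0.398). With DMSO, ITGA6 was higher in C25 than in T5 by 1.07 (SE 0.07, adjusted p = 1.48e-23), lower in C25 than in L4 (-0.30, SE 0.06, adjusted p = 2.32e-05) and lower in T5 than in L4 (-1.37, SE 0.07, adjusted p = 5.01e-30).

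ITGA5 (ENSG00000161638), the alpha 5 subunit of the main fibronectin receptor, did not pass the count filter. It had 0 counts in both T5 DMSO libraries and in replicate 2 of L4 with DMSO, 8 in replicate 1 of C25 with doxycycline, and 1 to 4 in the other 8 libraries. A count of 0 allows up to 3 counts, or at most 0.198 CPM in any library. ITGA5 lay at or under 0.257 CPM in 11 libraries and at 0.497 in the remaining one, and no difference was detectable at this depth.

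The leukocyte subunits of the beta 2 family went separate ways. ITGB2 (ENSG00000160255), the beta 2 subunit (CD18), was at 119 and 122 CPM in T5 with DMSO and at 122 and 124 with doxycycline. The L4 values were 116 and 122 and then 127 and 119, and those of C25 were 109.8 and 113 and then 110.5 and 114. The libraries of all groups lay close together. No difference passed the test in any of the 9 comparisons, and the doxycycline differences were 0.03 in T5, 0.04 in L4 and 0.01 in C25, each with an SE of 0.05.

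ITGAL (ENSG00000005844) encodes alpha L, which with beta 2 forms LFA-1, the receptor of ICAM proteins. It was at 0.524 and 0.388 CPM in T5 with DMSO and 0.655 and 0.634 with doxycycline, and at 0.458 and 0.196 and then 0.330 and 0.130 in L4. In C25 it was at 5.003 and 5.09 with DMSO and at 8.94 and 7.68 with doxycycline. All 4 C25 libraries lay above the other 8, with or without doxycycline. ITGAL was higher in C25 than in T5 before induction by 3.44 on the log2 scale (SE 0.40, adjusted p = 1.79e-15) and than in L4 by 3.92 (SE 0.47, adjusted p = 1.80e-16). It rose in C25 by 0.72 (SE 0.17, adjusted p = 2.14e-04). On 2 to 10 counts a library, the differences of 0.49 in T5 (SE 0.51) and -0.50 in L4 (SE 0.71) did not pass, and the C25 response was not shown to differ from either (adjusted p = 0.784 and 0.174).

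Per kilobase, ITGAL stayed far below its partner, at 1.28 ± 0.14 CPM per kb in C25 with doxycycline against 16.5 ± 0.4 for ITGB2 (SD, n = 2). ITGAE (ENSG00000083457), the alpha E subunit (CD103), which pairs with beta 7 and binds E-cadherin, was the one subunit of the 10 genes that fell. It was at 76.1 and 73.8 CPM in T5 with DMSO and at 66.4 and 71.3 with doxycycline. In L4 it was at 43.4 and 39.4 and then at 45.0 and 43.9, and in C25 at 55.4 and 52.4 and then at 40.7 and 41.2. Both doxycycline libraries lay below both DMSO libraries in T5 and C25 and above them in L4.

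ITGAE fell by 0.40 on the log2 scale in C25 (SE 0.07, adjusted p = 7.79e-07), and its differences of -0.12 in T5 (SE 0.06, adjusted p = 0.427) and 0.10 in L4 (SE 0.07, adjusted p = 0.621) did not pass. The C25 response was below that of L4 (difference -0.50, SE 0.10, adjusted p = 1.89e-05) and below that of T5 (difference -0.27, SE 0.09, adjusted p = 0.0127). The call against T5 is lost without T5 doxycycline replicate 2 (adjusted p = 0.0657), without C25 DMSO replicate 1 (0.0613), by total counts (0.0677) and with DESeq2 (0.0706). With DMSO, ITGAE was lower in C25 than in T5 (-0.48, SE 0.06, adjusted p = 2.64e-09), higher in C25 than in L4 (0.38, SE 0.07, adjusted p = 4.56e-06) and higher in T5 than in L4 (0.86, SE 0.07, adjusted p = 1.55e-18). ITGAE per kilobase, at 6.15 ± 0.06 CPM per kb in C25 with doxycycline, exceeded its only known partner ITGB7, at 0.138 ± 0.021.

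In the comparisons of lines with DMSO, ITGA4 and CERKL are counted, though their choice also used these libraries. Between C25 and T5, 5 of the 9 tested genes differed (3 higher, 2 lower), beside 45.4% of all genes (22.4% higher, 23% lower). Between C25 and L4, 7 differed (4 higher, 3 lower), beside 41% (20.4% higher, 20.6% lower). Between T5 and L4, 6 differed (3 higher, 3 lower), beside 36.4% (18.5% higher, 17.8% lower). Of the 7 tested subunits other than ITGA4, 4 responded differently in C25 and T5 (3 higher and 1 lower in C25), beside 43.8% of all genes (18.4% higher, 25.4% lower). In C25 and L4, 3 responded differently (2 higher, 1 lower), beside 45.4% (19.1% higher, 26.4% lower). In T5 and L4 none did, beside 0.939% (0.387% higher, 0.553% lower). The 4 became 2 without T5 doxycycline replicate 2. The C25 comparisons with T5 and with L4 share the C25 libraries and are not independent.

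The 17 other integrin subunits were mostly silent, and 7 passed the filter. In C25, 4 rose, ITGAM fell and ITGA1 and ITGA10 did not pass, and none passed in T5 or L4. Beside this, 28.5% of all genes rose and 31.7% fell in C25, and 1.84% were called in T5 and 2.14% in L4. ITGB4, which pairs with alpha 6, rose in C25 from 11.7 and 12.4 to 19.9 and 20.1 CPM (log2 0.73, SE 0.11, adjusted p = 4.37e-08). ITGB5, a partner of alpha V, rose from 5.45 and 6.82 to 11.2 and 9.83 CPM (log2 0.77, SE 0.15, adjusted p = 3.89e-06). ITGB4 was at 1.36 to 3.38 CPM in the T5 and L4 libraries, below every C25 library.

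ITGA7 rose in C25 from 2.12 and 3.03 to 4.53 and 4.36 CPM (log2 0.79, SE 0.23) and ITGA2, the collagen-binding alpha 2 subunit, from 8.53 and 9.46 to 11.7 and 12.3 CPM (log2 0.41, SE 0.12). Both calls are lost without C25 DMSO replicate 1 (adjusted p = 0.0912 and 0.0680). ITGAM, alpha M of myeloid cells, fell from 2.12 and 2.96 to 0.435 and 0.676 CPM (log2 -2.17, SE 0.38, adjusted p = 7.91e-07). ITGA10 stood between 1.95 and 3.88 CPM in all libraries. ITGA1, the collagen-binding alpha 1 subunit, marked the lines rather than the treatment: it was at 14.3 to 19.6 CPM in T5, 2.86 to 4.11 in L4 and 0.0644 to 0.373 in C25.

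Integrins become adhesive when talin and kindlin bind the beta tail, a step driven in lymphocytes by the small GTPase RAP1. Of 26 genes listed for integrin activation, 24 were tested, and 9 rose and 8 fell in C25, with a median log2 difference of 0.06 (over all genes 28.5% rose and 31.7% fell, with a median of -0.01). CYTH1, a cytohesin that acts on beta 2 integrins, rose from 74.3 and 76.8 to 183 and 188 CPM (log2 1.30, SE 0.06, adjusted p = 1.64e-33). RASGRP1, an exchange factor downstream of the T-cell receptor, rose from 200.2 and 191 to 332 and 331 CPM (log2 0.76, SE 0.05, adjusted p = 5.04e-24). APBB1IP, the RAP1 effector RIAM that brings talin to integrins, fell from 176 and 172 to 96.8 and 108 CPM (log2 -0.77, SE 0.05, adjusted p = 1.75e-21). RASGRP2, the RAP1 exchange factor CalDAG-GEFI, fell from 96.6 and 106 to 61.9 and 57.7 CPM (log2 -0.76, SE 0.06, adjusted p = 7.83e-19). Of the talin and kindlin genes called in C25, FERMT2 (log2 1.71) and FERMT3 (0.32) rose, and TLN2 (-0.55) and FERMT1 (-0.77) fell. The FERMT1 call is lost under 2 of its alternatives.

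In T5, RAP1GAP2, which turns RAP1 off, rose from 4.39 and 5.37 to 10.4 and 12.3 CPM (log2 1.22, SE 0.14, adjusted p = 4.38e-09). RASGRP1 also passed in T5 (log2 0.18, SE 0.05, adjusted p = 0.0443), a call lost under 8 of its alternatives, with adjusted p up to 0.331. No gene of the list passed in L4, and the medians were 0.04 in T5 and 0.03 in L4. Among all genes 1.84% were called in T5 and 2.14% in L4.

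Downstream of the receptors, adaptors and kinases of focal adhesions pass the signal to the actin skeleton. Of 27 listed genes 23 were tested, and 12 rose and 5 fell in C25, with a median of 0.22. Beside this, 28.5% of all genes rose and 31.7% fell in C25, with a median of -0.01. ARHGEF6, an exchange factor for RAC and CDC42 that binds parvin, rose from 83.5 and 89.6 to 416 and 417 CPM (log2 2.27, SE 0.05, adjusted p = 1.41e-49). LPXN, the leukocyte paxillin relative leupaxin, rose from 42.6 and 40.7 to 149 and 165 CPM (log2 1.91, SE 0.07, adjusted p = 2.49e-39). PTK2B, the kinase PYK2, rose from 46.4 and 49.2 to 103 and 101 CPM (log2 1.09, SE 0.06, adjusted p = 8.52e-26). LIMS1, the LIM protein PINCH1 that binds integrin-linked kinase, fell from 88.5 and 88.3 to 54.5 and 52.5 CPM (log2 -0.72, SE 0.06, adjusted p = 1.11e-17) and NEDD9, a docking protein of the CAS family, rose from 16.5 and 16.5 to 34.7 and 37.3 CPM (log2 1.13, SE 0.09). PTK2, the focal adhesion kinase itself, was at or under 0.0656 CPM in all libraries.

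ARHGEF6 was the one gene of the adhesion list called in all 3 lines: it rose from 83.1 and 80.3 to 99.1 and 93.0 CPM in T5 (log2 0.23, SE 0.06, adjusted p = 0.0175) and from 44.4 and 38.1 to 55.6 and 56.4 in L4 (log2 0.44, SE 0.07, adjusted p = 3.88e-06). The T5 call is lost without either DMSO library (adjusted p = 0.0989 and 0.289) or without doxycycline replicate 1 (0.276). In L4, ZYX, the focal adhesion protein zyxin, also passed (log2 0.17, SE 0.05, adjusted p = 0.0383), a call lost under 7 of its alternatives with adjusted p up to 0.330. NEDD9 fell in L4 from 8.51 and 9.45 to 6.07 and 4.74 CPM (log2 -0.73, SE 0.15, adjusted p = 9.61e-04), and the adjusted p was 0.145 when doxycycline replicate 2 was left out.

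Of 25 genes for integrin ligands 14 were tested, and 3 rose and 4 fell in C25, with a median of 0.19. None passed in T5 or L4. The shares over all genes were 28.5% higher and 31.7% lower in C25, 1.84% called in T5 and 2.14% in L4. VCAM1, the main cellular ligand of VLA-4, had 1 library above 0, at 0.0655 CPM, and MADCAM1 lay between 0.655 and 1.68 CPM. ICAM2, a ligand of LFA-1, rose from 24.3 and 23.6 to 50.8 and 52.3 CPM (log2 1.11, SE 0.08, adjusted p = 6.79e-21). LAMB1, a laminin chain, rose from 30.0 and 31.9 to 50.9 and 51.2 CPM (log2 0.72, SE 0.07, adjusted p = 4.90e-14). CDH1, E-cadherin and the ligand of alpha E with beta 7, fell from 1.86 and 1.74 to 0.373 and 0.614 CPM (log2 -1.85, SE 0.41, adjusted p = 1.73e-05). FN1, fibronectin, fell from 3.40 and 3.80 to 2.42 and 1.84 CPM (log2 -0.75, SE 0.23, adjusted p = 0.00369), with an adjusted p of 0.0662 without C25 doxycycline replicate 2.

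Of 13 surface proteins that associate with integrins 10 were tested, and 4 rose and 4 fell in C25, with a median of 0.01. Among all genes 28.5% rose and 31.7% fell in C25. The tetraspanins CD53 and CD82 rose, CD53 from 13.6 and 12.4 to 58.3 and 62.7 CPM (log2 2.22, SE 0.09, adjusted p = 1.01e-34) and CD82 from 176 and 181 to 555 and 544 CPM (log2 1.62, SE 0.05, adjusted p = 4.83e-44). CD99, a protein of leukocyte migration, rose from 126 and 134 to 262 and 261 CPM (log2 1.01, SE 0.05, adjusted p = 5.37e-30). CD47, the integrin-associated protein, rose from 83.2 and 78.1 to 139 and 134 CPM (log2 0.76, SE 0.06, adjusted p = 7.98e-20). The 4 that fell were CD151, also a tetraspanin (log2 -1.17), CD44 (-0.50), BSG (-0.17) and SLC3A2 (-0.13). The BSG and SLC3A2 calls are lost under 2 and 4 of their alternatives.

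In T5, CD53 rose from 6.69 and 8.54 to 11.98 and 12.9 CPM (log2 0.71, SE 0.13, adjusted p = 2.42e-04), with an adjusted p of 0.0910 without DMSO replicate 1. CD44, the hyaluronan receptor, also passed in T5 (log2 0.22, SE 0.06, adjusted p = 0.0258), a call lost when any of the 4 T5 libraries was left out (adjusted p 0.0801 to 0.418) and with DESeq2 (0.136). In L4, CD99 rose from 326 and 343 to 433 and 426 CPM (log2 0.36, SE 0.05, adjusted p = 2.80e-08) and CD82 from 120.1 and 128 to 159 and 154 CPM (log2 0.33, SE 0.05, adjusted p = 2.48e-06). SLC3A2, the CD98 heavy chain that binds beta 1 tails, passed in L4 (log2 0.18, SE 0.05, adjusted p = 0.0375) and lost that call when any of the 4 L4 libraries was left out. CD44 was at 0 in both L4 DMSO libraries.

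**Figure D4:**
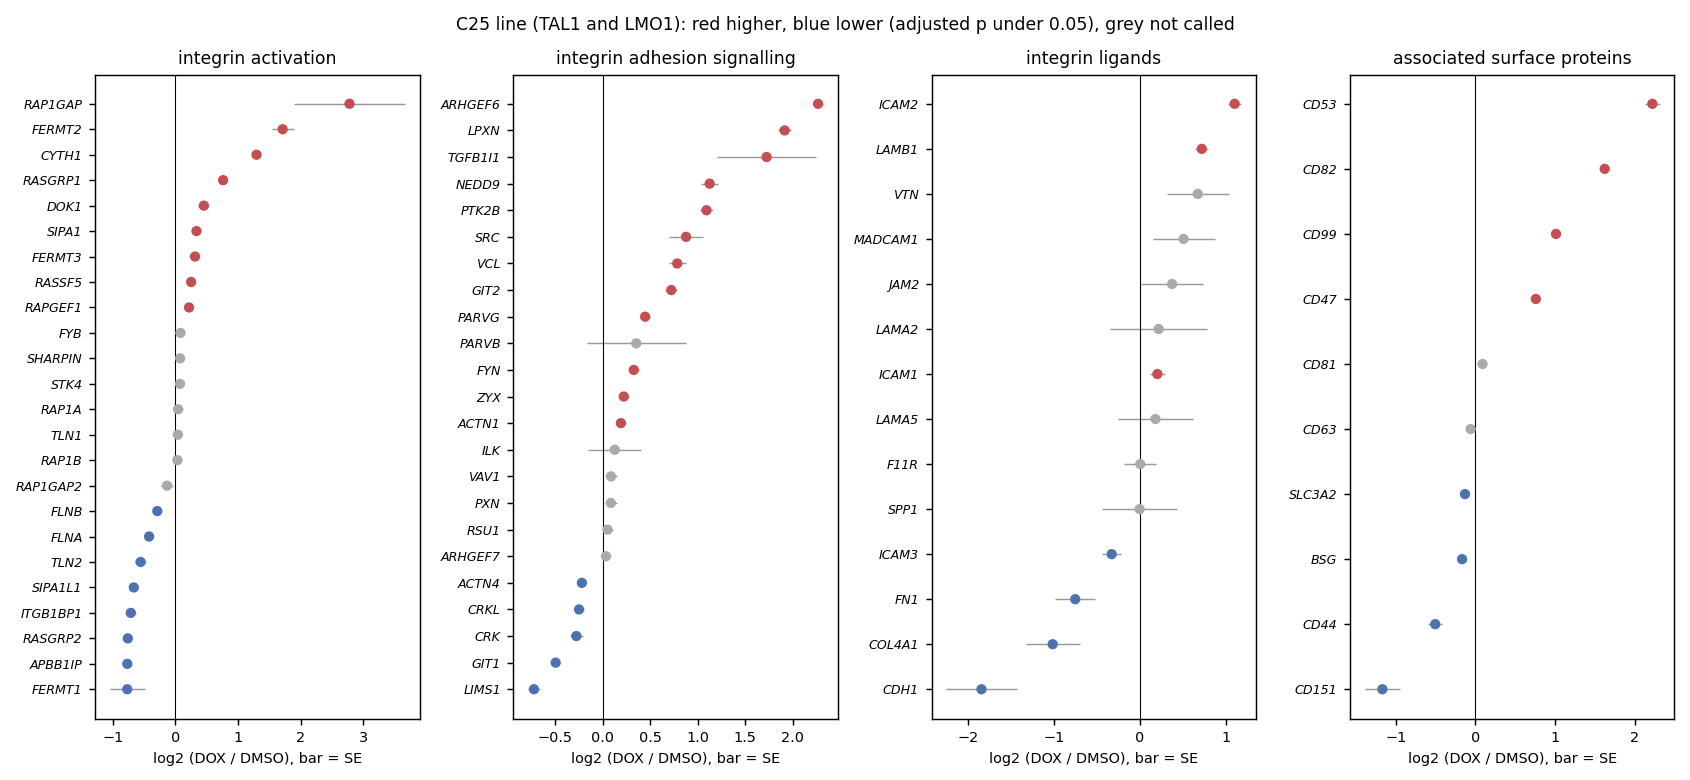
Log2 difference between doxycycline and DMSO in C25 (x axis, bars are SE) for the tested genes of the 4 lists around integrins, 1 panel per list, sorted by value. Red genes rose, blue genes fell and grey genes did not pass an adjusted p of 0.05; each list holds genes of both directions.

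CERKL was set beside ceramide kinase, after which it is named, and further genes of lipid metabolism and signalling. The list held 10 genes of ceramide, sphingosine and diacylglycerol metabolism or signalling, among them the receptors S1PR1 and S1PR4. Of these 9 were tested, and 3 rose and 1 fell in C25, with a median of 0.04. None passed in T5 or L4. All genes gave 28.5% higher and 31.7% lower in C25, 1.84% called in T5 and 2.14% in L4. SGPP1, a sphingosine phosphate phosphatase, rose from 31.7 and 29.03 to 64.4 and 62.0 CPM (log2 1.06, SE 0.07, adjusted p = 2.89e-21). DGKZ and DGKA, diacylglycerol kinases of T cells, rose by 0.36 (SE 0.05) and 0.22 (SE 0.06), and AGK, a mitochondrial lipid kinase, fell by 0.38 (SE 0.06). CERK, ceramide kinase itself, was at 148 and 147 CPM with DMSO and at 159 and 156 with doxycycline in C25 (log2 0.09, SE 0.05, adjusted p = 0.108).

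Across the 12 libraries, CERKL ranked 5th of 10827 genes averaging 5 CPM or more by the Pearson correlation of log2 CPM with ITGA4 (r = 0.993). CERKL was chosen for a rise in all 3 lines like that of ITGA4, so its rank follows in part from that choice. The other leading genes were RUNX1 (r = 0.996), ZFP36L1 (0.994), STAT3 (0.993), SLC35B1 (0.993) and TRIB2 (0.992). Among the integrin subunits ITGAV had r = 0.84, ITGB1 0.71, ITGA6 0.28, ITGAE -0.41 and ITGB2 -0.45. The 12 points share 3 lines and 2 of them, C25 with doxycycline, stand far from the rest, so these values are a description of that separation. RUNX1, a transcription factor of blood cells, was at 208 ± 13 CPM in C25 with DMSO and at 1141 ± 10 with doxycycline (SD, n = 2), with log2 differences of 2.46 (SE 0.05) in C25, 0.18 (SE 0.05) in T5 and 0.14 (SE 0.05) in L4. STAT3, a transcription factor of cytokine signalling, had differences of 2.29 (SE 0.05) in C25, 0.24 (SE 0.05) in T5 and 0.24 (SE 0.05) in L4.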

How the data were processed

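RNA of 12 HPB-ALL libraries was sequenced as strand-specific paired-end reads on a DNBSEQ platform, per the labels' protocols. Reads were processed with STAR 2.5.2a, featureCounts and DESeq2 1.12.4 on build hg19, per the submitters' processing notes. The strand setting and annotation are not stated there. The authors deposited raw counts per gene, without normalization. They also deposited a DESeq2 table per line which, per the file headers, holds a mean normalised signal, log2 fold changes and their errors, a Wald score, and p-values, raw and adjusted; only the ITGA6 value of L4 was taken from these.

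From the counts, genes were kept by filterByExpr, scaled by TMM and fitted with edgeR 4.0.16 (R 4.3.3, robust quasi-likelihood, two-sided F tests) with 1 mean per group over all 12 libraries, which left 6 residual degrees of freedom. The tested comparisons were doxycycline against DMSO in each line, the differences of these responses between lines, and the DMSO groups between lines. Calls needed an adjusted p (Benjamini-Hochberg, over 16287 genes) under 0.05. The SE is the log2 change over the root of F, or the counting error where larger. Per-kilobase levels used GENCODE 29 exon lengths, and promoter windows came from RefSeq GRCh38.p14; both are on another build than the counts, so they were joined by gene identifier or symbol. Named genes are all 10 members, the tested subunits and neighbours, up to 4 genes per list with the smallest p in C25, up to 3 per list called in T5 or L4, and the 5 genes most correlated with ITGA4. VCAM1, MADCAM1, PTK2, LIMS1, CERK, TLN2, FERMT1, FERMT2, FERMT3, CD151 and BSG were named outside this rule, after their values were seen. So were CD44 in L4 and C25 and SLC3A2 in C25. The members and lists were chosen with earlier results of these data known. The procedure was tested on simulated data. A count of 0 allows up to 3 counts; this covers counting error only. Alternatives were DESeq2 1.42.0, other scalings, no filter, non-robust estimation, a replicate block, single lines and each library left out.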

Additional observations from a re-analysis of the deposited data

Results flagged for a closer look

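In C25 and T5, 4 of the 7 tested subunits other than ITGA4 responded differently (3 higher, 1 lower in C25). In C25 and L4, 3 did (2 higher, 1 lower). The shares over all tested genes were 43.8% and 45.4%, so a difference by itself was common. ITGB7, ITGAL and ITGB2 passed in neither comparison, and ITGA6 did not pass against L4. The test was of the difference itself (edgeR's quasi-likelihood test, adjusted over all genes). Against T5 the log2 difference of responses was 1.58 for ITGB1 (adjusted p = 6.14e-31), 0.92 for ITGAV (6.37e-09), 0.33 for ITGA6 (0.00284) and -0.27 for ITGAE (0.0127). Against L4 it was 1.53 for ITGB1 (1.71e-31), 0.86 for ITGAV (1.47e-08) and -0.50 for ITGAE (1.89e-05). Among these 7 called differences, only those of ITGA6 and ITGAE against T5 were lost under an alternative.

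Between T5 and L4, responses differed for 6 genes named from the lists around integrins. By list, 1 of 24 tested genes of integrin activation was higher in T5, as was 1 of 23 of adhesion signalling. Of 10 tested surface proteins 1 was higher and 3 were lower, and of 14 tested ligands none differed. Over all tested genes the share was 0.939% (0.387% higher, 0.553% lower). The 6 genes were picked from those called in a doxycycline response, which shares libraries with this comparison, so their number depends on that choice. The T5 response exceeded the L4 response by 1.02 for RAP1GAP2 (adjusted p = 4.06e-04), by 0.91 for NEDD9 (0.00309) and by 1.42 for CD53 (0.0113). It was below the L4 response for CD82 (-0.33, adjusted p = 0.00163), SLC3A2 (-0.32, 0.00345) and CD99 (-0.44, 3.37e-06). The call of NEDD9 is lost without replicate 2 of T5 or of L4 with doxycycline (adjusted p = 0.0604 and 0.128). That of CD53 is lost without T5 DMSO replicate 1, L4 DMSO replicate 1 or L4 doxycycline replicate 1 (0.0683, 0.206 and 0.239).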

How the results depend on the processing

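The number of genes called in T5, 299, was 523 when only the T5 libraries were fitted and 100 to 155 when 1 library was left out. In L4 it was 349, and 218 with DESeq2 and 155 to 284 with 1 library left out. The count of subunits other than ITGA4 called in L4, 1, became 0 with DESeq2 and 0 to 1 with 1 library left out, and that of different responses between C25 and T5, 4, became 2 to 4. By total counts the split of higher and lower calls was 5611 and 4277 in C25 in place of 4644 and 5168, and 216 and 57 in T5 in place of 160 and 139. Of 149 single-gene values with a test, 124 kept their side of the threshold and 25 lost a call under at least 1 alternative, none gained one and none reversed. Of the 12 ITGA4 and CERKL differences given without a test, 5 moved by more than the spread between replicates, all by total counts. No direction was read from values called in neither fit. In C25, calls lost under an alternative and not given above were those of TGFB1I1, ICAM1, ICAM3 and COL4A1. Same-numbered libraries had deviations correlated at -0.02 to 0.05 over all tested genes, in the pairs of groups compared. Such a check cannot show whether some genes shared a replicate effect. With a replicate block 9885 genes were called in C25, 358 in T5 and 410 in L4, in place of 9812, 299 and 349. The count of subunits called in each line did not move. Depth limits ITGB7, ITGAL in T5 and L4, and ITGA5.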
